A study of Sus scrofa with 92 samples.

Results

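Liver RNA taken at Baseline was compared between pigs that later died and pigs that lived. The comparison rested on 20 of the 92 RNA-seq libraries of the series, 1 from each of 20 animals. Of these animals 5 died (3 FS and 2 CPF) and 15 lived (12 FS and 3 CPF). The pigs were juvenile male Yorkshire-Landrace animals, all fasted overnight. CPF (carbohydrate prefed) animals drank diluted syrup before anesthesia, and FS (fasted) animals did not. All were instrumented and splenectomized, and the Baseline biopsy was cut from the edge of the liver once the animal was stable and before chest injury, hemorrhage and liver crush. The same animals were biopsied again at FR2, FR8 and FR20, which the labels place 2, 8 and 20 hours after resuscitation began. The labels give the outcome of each animal as died or lived, without a time or cause of death, and only 2 of the animals that died were CPF. Only animals with a biopsy at every time point were sequenced, so those that died had reached FR20. Animals carry numbers here only so that they can be told apart.

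There were 23 Baseline libraries, and 3 of them, all from FS animals that lived (17, 19 and 21), were left out, selected on their albumin counts. These libraries held 4, 899 and 5 counts of ALB, the plasma protein that hepatocytes make in bulk. In CPM, counts scaled to the same total in every library, these were 0.197, 52.7 and 0.312, where the lowest library kept, of FS animal 10, had 59451 and the next, of CPF animal 3, had 88577. The 3 libraries instead held 18973, 27283 and 25109 CPM of ACTA1, skeletal muscle actin, where the highest of the 20 libraries kept had 24.0. The ALB values chose the animals, so the ALB difference between outcomes is not read as a test. From here on CPM are scaled by the TMM (trimmed mean of M values) factor of each library.

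As background, the liver answers stress signals in layers. Immediate early genes such as FOS, EGR1 and KLF10 are switched on within minutes by growth factors, cytokines, stretch or injury, because their transcription needs no new protein. Cortisol acts through the glucocorticoid receptor on targets such as FKBP5, insulin and sugar act on fatty acid synthesis genes, and inflammatory cytokines act through NF-kappaB on adhesion molecules and chemokines. An anesthetized animal after surgery can show any of these at Baseline.

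Library totals ran from 6877117 to 14642156 counts over the 20 libraries. The totals of the animals that died (mean 10990600 ± 1606230, SD, n = 5) and lived (11536800 ± 2092850, n = 15) overlapped, with an exact 2-sided permutation p of 0.566 over the 4550 splits within FS and CPF. Neither the number of genes with a count, the share of the 10 most abundant genes nor the share of the 13 mitochondrial genes differed past the test (exact permutation p from 0.208 to 0.975, adjusted p from 0.755 to 0.975 over the 4 measures). No pair of the 190 pairs of libraries held identical counts.

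No gene passed the threshold in this comparison. Of 11688 genes tested, 0 (0%) reached an adjusted p under 0.05 with a log2 fold change of at least 1 in size by edgeR's quasi-likelihood test with a term for fed status. The smallest adjusted p was 0.0578, for RND1. At an unadjusted p under 0.05 there were 998 genes, 520 with higher values in the animals that died (4.45%) and 478 with lower values (4.09%), and the median log2 fold change of all genes was −0.02. The likelihood ratio test with tagwise dispersion called 19 genes, DESeq2 called 10 and limma with library quality weights called 0. With 5 animals that died, a gene without a call is not shown to be equal in both outcomes.

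RND1 encodes a small GTPase that loosens the actin cytoskeleton and cell adhesion, and it was the single gene (0.00856% of those tested) for which all 5 animals that died lay above all 15 that lived. Its values were 101, 59.1 and 159 CPM in FS animals 2, 16 and 20 and 76.9 and 250.1 CPM in CPF animals 7 and 8. The animals that lived ranged over 17.6 to 57.4 CPM (median 42.6). The groups did not overlap, although FS animal 16 lay just above the highest animal that lived, FS animal 15. The log2 fold change was 1.67 ± 0.28 (SE; edgeR quasi-likelihood p = 4.95e-06, adjusted p = 0.0578). Leaving out 1 animal at a time moved it across the threshold in some cases. It was called without CPF animal 7 (log2 fold change 1.83, adjusted p = 0.0162) and without FS animal 16 (adjusted p = 0.0165), FS animal 5 (0.0456) or FS animal 15 (0.0284). It was not called when any other animal was left out. Among these were FS animal 2 (1.68, adjusted p = 0.211), CPF animal 8 (1.44, 0.219) and FS animal 20 (1.44, 0.245). Nor was it called among FS animals alone (edgeR adjusted p = 0.276), with all 23 libraries (0.819) or with limma (0.165). DESeq2 (adjusted p = 4.79e-04) and the likelihood ratio test (6.14e-06) did call RND1. So did edgeR's quasi-likelihood test without the fed term (0.0271) and with every gene of at least 1 count kept (0.0352).

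**Figure D1:**
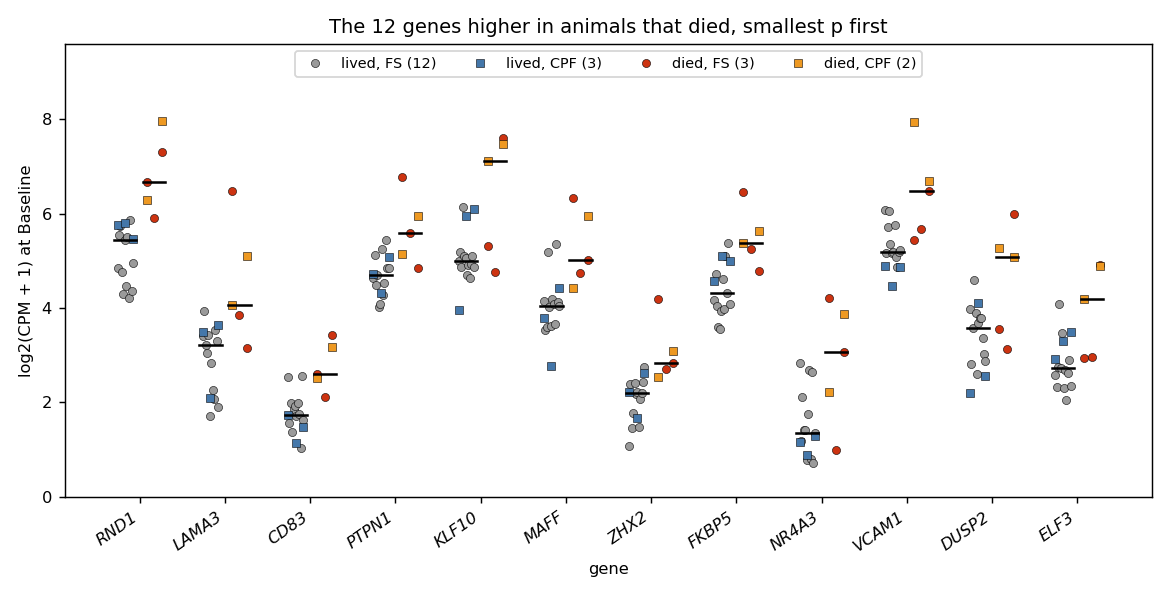
Expression at Baseline of the 12 genes with a symbol that had the smallest p among those with a log2 fold change of at least 1, none of them called. Each point is 1 animal, the vertical axis is log2(CPM + 1), bars are medians, and the numbers of animals stand in the key. RND1 is the only gene shown whose animals that died (right of each pair) all lie above those that lived.

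The other 11 of the 12 genes with the smallest p, among those with a symbol and a log2 fold change of at least 1, were LAMA3, CD83, PTPN1, KLF10, MAFF, ZHX2, FKBP5, NR4A3, VCAM1, DUSP2 and ELF3, and none was called. LAMA3, a laminin chain of epithelial basement membranes, had 88.5, 13.4 and 7.86 CPM in FS animals 2, 16 and 20 and 15.8 and 33.5 CPM in CPF animals 7 and 8, against 2.28 to 14.4 CPM (median 8.28) in animals that lived. PTPN1, a phosphatase that switches off the insulin receptor, had 109, 47.3 and 27.9 CPM in FS animals 2, 16 and 20 and 34.6 and 60.5 CPM in CPF animals 7 and 8, against 15.2 to 42.8 CPM (median 24.99). In both genes FS animal 2 lay above every other animal. Without it their log2 fold changes went from 2.09 to 0.99 and from 1.13 to 0.67. The same animal was highest for FKBP5, NR4A3, ZHX2, which encodes a transcriptional repressor, and MAFF, a small Maf transcription factor. MAFF had 80.2, 25.9 and 31.3 CPM in FS animals 2, 16 and 20 and 20.5 and 60.8 CPM in CPF animals 7 and 8, against 5.81 to 40.2 CPM (median 15.5).

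A different set of animals was high for KLF10, DUSP2, ELF3 and VCAM1. KLF10, a transcription factor induced by TGF-beta, had 38.7, 26.1 and 194 CPM in FS animals 2, 16 and 20 and 137 and 178 CPM in CPF animals 7 and 8, where the animals that lived had 14.6 to 69.5 CPM (median 30.8). Animals 20, 7 and 8 lay above all that lived, while animals 2 and 16 lay among them. DUSP2, a phosphatase that turns off MAP kinases, had 10.8, 7.82 and 63.1 CPM in FS animals 2, 16 and 20 and 37.5 and 33.1 CPM in CPF animals 7 and 8, against 3.56 to 23.2 CPM (median 10.9). ELF3, an epithelial transcription factor, had 6.62, 6.84 and 29.3 CPM in FS animals 2, 16 and 20 and 17.3 and 28.6 CPM in CPF animals 7 and 8, against 3.12 to 15.9 CPM (median 5.62). In each of these the same 3 animals were above every animal that lived. Without FS animal 20 the log2 fold changes of KLF10, DUSP2 and ELF3 went from 1.496, 1.57 and 1.28 to 0.80, 0.89 and 0.72. VCAM1, an endothelial adhesion molecule for leukocytes, had 42.7, 50.2 and 88.1 CPM in FS animals 2, 16 and 20 and 245 and 103 CPM in CPF animals 7 and 8, and the animals that lived had 21.1 to 66.8 CPM (median 35.4). CPF animal 7 was the highest there, and among FS animals alone the log2 fold change of VCAM1 was 0.49 instead of 1.34.

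CD83, a surface protein of activated dendritic and B cells, was low in every animal. It had 5.09, 3.34 and 9.74 CPM in FS animals 2, 16 and 20 and 4.74 and 8.03 CPM in CPF animals 7 and 8, against 1.05 to 4.85 CPM (median 2.34). FS animal 20 and CPF animal 8 stood highest, FS animal 2 was just above the highest animal that lived, and all 5 were above the median of those that lived. Except for those named here and below, genes without a symbol were counted only. Among all genes at an unadjusted p under 0.05 with a log2 fold change of at least 1 in size, 141 were higher (98 with a symbol) and 70 lower (50 with a symbol). ENSSSCG00000024699 had the second smallest p of all genes and was carried by 1 animal, with 10.8 CPM in FS animal 2 and 0 counts in the other 4 that died. ENSSSCG00000009438 had a log2 fold change of 3.70, and 2.43 without FS animal 2. It was not called here, but DESeq2, the likelihood ratio test and the run without CPF animal 7 called it.

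The immediate early genes had the highest median of the 45 lists examined. At an unadjusted p under 0.05, 14 of 21 genes tested had higher values in the animals that died, against 4.45% of all genes, and 0 had lower values, none past the adjusted threshold. The median log2 fold change of the list was 1.01, and 20 of the 21 were positive. The 14 were KLF10, NR4A3, DUSP2, MYC, IER5, GADD45B, KLF6, IER3, FOSL2, JUNB, EGR2, NR4A2, ATF3 and IER2, and all but the list's extremes and the genes among the 12 above were picked for that p.

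Among the transcription factors of the list, MYC, which drives growth and ribosome genes, had 87.1, 87.7 and 98.7 CPM in FS animals 2, 16 and 20 and 108 and 154 CPM in CPF animals 7 and 8. The animals that lived had 32.0 to 98.3 CPM (median 54.8). All 5 that died were above the median of those that lived and 3 above the highest, with a log2 fold change of 0.90 ± 0.24 (SE; edgeR quasi-likelihood p = 0.00107, adjusted p = 0.321). KLF6, a zinc finger factor induced by liver injury, had 132, 66.0, 92.8, 103 and 276 CPM in animals 2, 16, 20, 7 and 8, against 32.4 to 116 CPM (median 61.4). NR4A3, an orphan nuclear receptor and the highest member of the list at 2.13 ± 0.54 (SE), had 17.6, 0.977 and 7.42 CPM in FS animals 2, 16 and 20 and 3.67 and 13.7 CPM in CPF animals 7 and 8, against 0.633 to 6.09 CPM (median 1.55). FS animal 16 lay below the median of the animals that lived for this gene. ATF3, a stress factor of the CREB family, reached 329 CPM in CPF animal 8 while the other 4 that died had 13.7 to 47.8 CPM and those that lived 4.26 to 104 CPM (median 19.7). Its log2 fold change went from 1.51 to 0.39 without CPF animal 8. Its relative FOSL2, a subunit of AP-1, had 17.4, 10.3, 4.02, 3.36 and 11.01 CPM in animals 2, 16, 20, 7 and 8, against 1.83 to 9.93 CPM (median 3.65).

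Signalling and stress genes of the list showed a similar range. GADD45B, a stress sensor that acts on MAP kinases, had 339.9, 144 and 317 CPM in FS animals 2, 16 and 20 and 504 and 232 CPM in CPF animals 7 and 8, and the animals that lived had 14.99 to 232 CPM (median 92.8). All 5 that died were above the median of those that lived, and animals 2, 20 and 7 were above the highest of them. IER3, a survival factor, had 88.0, 32.3, 47.7, 37.1 and 52.5 CPM in animals 2, 16, 20, 7 and 8, against 5.41 to 68.1 CPM (median 14.6). IER5, a cofactor of the heat shock factor HSF1, had 6.37, 2.85, 6.79, 9.48 and 5.80 CPM in animals 2, 16, 20, 7 and 8, against 2.35 to 5.27 CPM (median 3.19). For IER5 4 of 5 animals that died were above every animal that lived and FS animal 16 was not. The members with no unadjusted p under 0.05 were FOS (1.23 ± 1.05, SE), EGR1 (1.01 ± 0.76), DUSP1, KLF4, FOSL1, CCN2 and CCN1, the last the lowest of the list at −0.05 on the log2 scale.

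**Figure D2:**
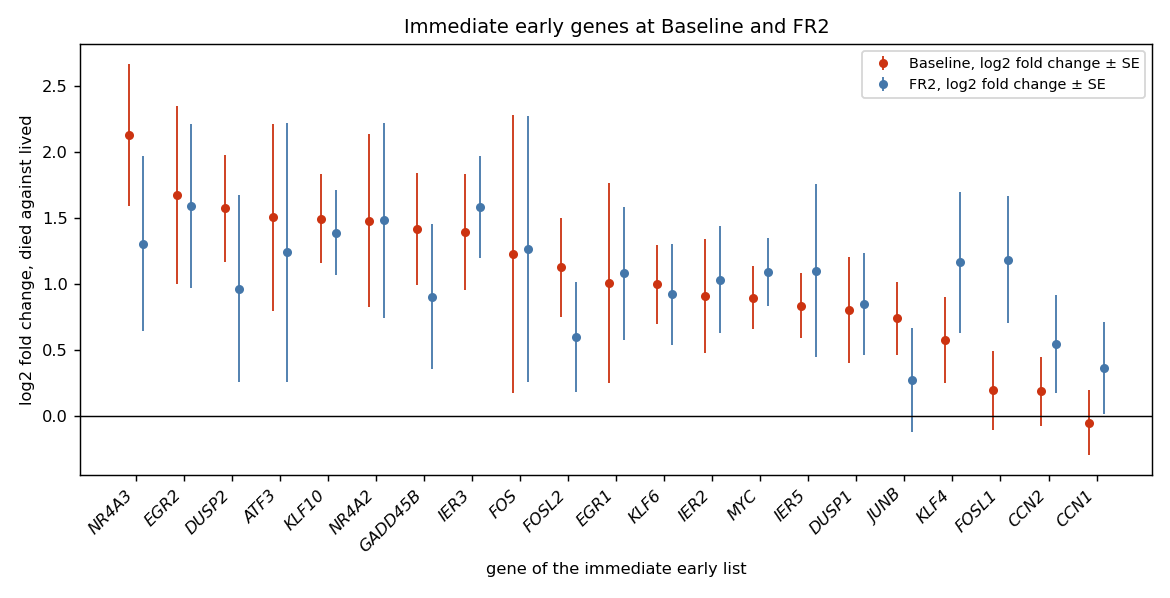
Log2 fold change of animals that died against those that lived for the 21 genes of the immediate early list, at Baseline (20 libraries) and at FR2 (20 libraries of the same animals). Points are fitted values and bars are 1 SE, derived from the F statistic, and all genes but CCN1 lie above 0 at Baseline.

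The list was not high in every animal that died. Counted per animal, FS animal 2 exceeded the median of the animals that lived in 18 of 21 genes, FS animal 20 in 19, CPF animal 7 in 17 and CPF animal 8 in 20. FS animal 16 exceeded it in 10. The animals that lived ranged from 2 to 17, with the highest count in FS animal 15 and the lowest in CPF animal 3. Animals 2, 20 and 8 were above all 15 in this count, animal 7 equalled the highest, and animal 16 was near their median of 9. Animal 8 was above the highest animal that lived in 14 genes of the list and animal 16 in 1. These counts per animal were not made over all genes, so they cannot tell the list from the animal.

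The count of 14 depended on which animals were compared. Among FS animals alone (3 died, 12 lived) it was 7 and the median log2 fold change 0.51. With the 3 muscle-rich libraries put back it was also 7, with a median of 0.83. The count of higher genes over all genes fell as well, from 520 of 11688 to 314 of 11328 among FS animals. It was 311 of 12362 with the 3 libraries put back. Leaving out 1 animal at a time gave 10 to 15 genes of the list and medians of 0.72 to 1.24, where 283 to 633 of all genes were higher. Without FS animals 4 and 10, the FS animals that lived with the lowest albumin in scaled CPM, the list count was 12. Of all 11481 genes 601 were higher in that run.

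**Figure D3:**
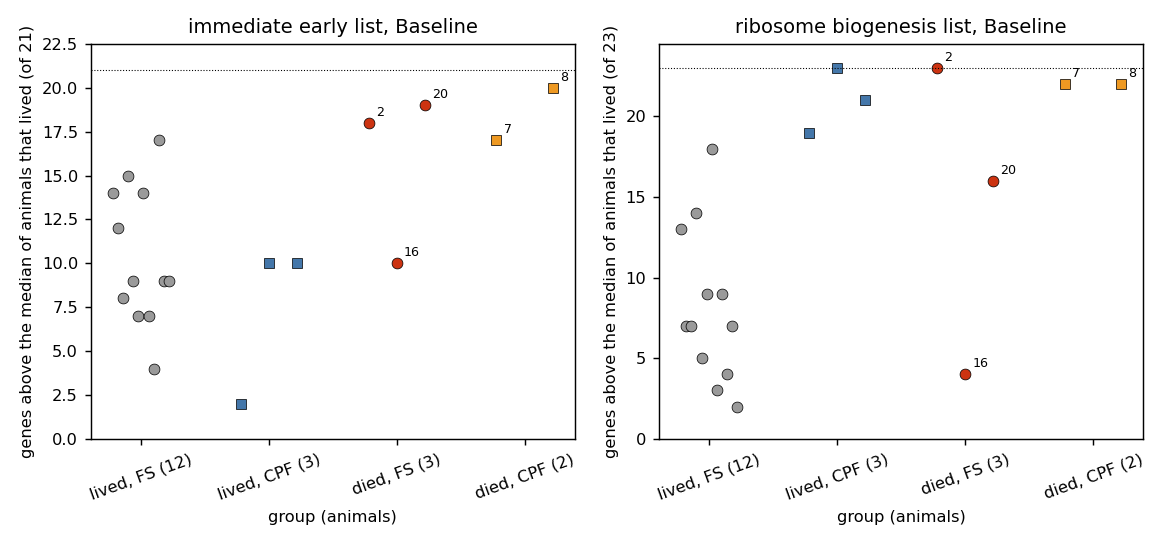
For each animal, the number of immediate early genes (left, of 21) and ribosome biogenesis genes (right, of 23) whose CPM exceeded the median of the 15 animals that lived. Each point is 1 animal, animals that died are numbered, and the dotted line marks all genes of the list. FS animal 16 lies among the animals that lived in both panels, and the CPF animals lie high on the right whatever their outcome. Counts over all genes were not made.

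Of the inflammatory cytokine and NF-kappaB list 5 of 19 genes had higher values at an unadjusted p under 0.05, namely VCAM1, CXCL2, ICAM1, BIRC3 and CCL2, and 0 lower ones, against 4.45% and 4.09% of all genes, with a list median of 0.28. Without FS animal 20 the log2 fold changes of ICAM1 and BIRC3 went from 0.53 to 0.29 and from 0.54 to 0.25. CXCL2, a chemokine for neutrophils, was the highest member at 1.57 ± 0.57 (SE), p = 0.0118, from 1.53, 1.14, 3.75, 1.45 and 3.39 CPM in animals 2, 16, 20, 7 and 8, against 0 to 2.72 CPM (median 0.878). CCL2, a chemokine for monocytes, had 14.9, 12.4, 44.9, 28.5 and 55.6 CPM in animals 2, 16, 20, 7 and 8, and the animals that lived had 2.70 to 50.6 CPM (median 11.8). Animals 20, 7 and 8 were the highest of those that died for ICAM1, BIRC3 and CCL2, and the ranges of both outcomes overlapped in all 5 genes. BIRC3, an inhibitor of apoptosis, reached a log2 fold change of 0.54 and turned to −0.44 with all 23 libraries. MYD88, the adaptor of Toll-like receptors, was the lowest member at −0.44. In the IL10 and STAT3 list 0 of 12 genes reached an unadjusted p under 0.05, with JAK1, a cytokine receptor kinase, highest at 0.59 and OSMR, the oncostatin M receptor, lowest at −0.08. Interferon-stimulated genes had 0 of 25, running from OASL at −0.73 to the chemokine CXCL10 at 0.64, which was 0.09 without CPF animal 7. Class II antigen presentation had 0 of 8, from IFI30 at −0.29 to the costimulator CD86 at 0.46.

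Targets of cortisol, the clock and hypoxia followed. The list of glucocorticoid targets had 4 of 17 genes higher at an unadjusted p under 0.05 (FKBP5, ZBTB16, GLUL and SGK1) and 1 lower (TSC22D1), against 4.45% and 4.09% of all genes, with a list median of 0.41. TSC22D1 passed the filter in only 9 of 11 other settings and in 11 of 20 runs with 1 animal left out. FKBP5, a chaperone that dampens the glucocorticoid receptor, had 86.6, 37.0 and 26.7 CPM in FS animals 2, 16 and 20 and 40.5 and 48.4 CPM in CPF animals 7 and 8, against 10.7 to 40.5 CPM (median 19.1). SGK1, a kinase that raises sodium transport, had 682, 469.8 and 153 CPM in FS animals 2, 16 and 20 and 91.7 and 79.6 CPM in CPF animals 7 and 8, against 39.3 to 298 CPM (median 78.6). FS animals 2 and 16 were the highest of all 20 for SGK1, and for the transcription factor ZBTB16 FS animal 2 had 10.19 CPM where the highest animal that lived had 3.03. Without FS animal 2 the log2 fold changes of FKBP5, SGK1 and ZBTB16 went from 1.09, 1.32 and 1.39 to 0.63, 0.77 and 0.74. LCN2, an acute phase protein also induced by cytokines, was the lowest at −2.01 ± 1.03 (SE), with at most 1.55 CPM in animals that died and up to 30.8 CPM in those that lived. It was −0.96 without FS animal 12 and −1.14 without CPF animal 3, both of which lived. Among clock genes 3 of 16 were higher (BHLHE40, RORA and CRY1) and 0 lower, and NPAS2, a partner of BMAL1, was lowest at −0.86. BHLHE40, a repressor shared by the clock and hypoxia lists, had 19.6, 34.9 and 180.2 CPM in FS animals 2, 16 and 20 and 102 and 219.8 CPM in CPF animals 7 and 8, against 14.4 to 71.1 CPM (median 33.8). Animals 20, 7 and 8 stood above all that lived and animal 2 among their lowest, and without FS animal 20 its log2 fold change went from 1.42 to 0.86. Hypoxia-inducible factor targets had 2 of 21 higher, where 4.45% of all genes were, BHLHE40 and the glucose transporter SLC2A1, and their lowest member was the collagen hydroxylase P4HA2 at −0.58.

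Genes that answer feeding were high in some animals of each outcome, and none of them passed the threshold. SCD, a desaturase of fatty acid synthesis, had 225, 92.3 and 2384 CPM in FS animals 2, 16 and 20 and 1593 and 1074 CPM in CPF animals 7 and 8, against 12.1 to 1431 CPM (median 295). FGF21, a hepatic hormone of fasting and sugar intake, had 0.255, 0.244 and 16.6 CPM in FS animals 2, 16 and 20 and 12.2 and 13.6 CPM in CPF animals 7 and 8, against 0.141 to 35.6 CPM (median 1.07). In both genes FS animal 20 and both CPF animals that died lay above FS animals 2 and 16. Their log2 fold changes of 1.49 and 1.64 became −0.04 and −0.76 without FS animal 20. FGF21 was also the highest member of the ATF4, fatty acid oxidation and insulin lists. In the fatty acid synthesis list 1 of 14 genes was higher at an unadjusted p under 0.05, against 4.45% of all genes. ACACB, an acetyl-CoA carboxylase, was lowest at −0.61. Cholesterol synthesis had 0 of 19, with the reductase HSD17B7 lowest at −0.23.

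The fatty acid oxidation list had 1 of 21 genes higher at an unadjusted p under 0.05 (FGF21) and 2 lower, against 4.45% and 4.09% of all genes, with a median of −0.07 against −0.02 for all genes. SLC25A20, the mitochondrial carnitine carrier, had 25.5, 41.5 and 26.2 CPM in FS animals 2, 16 and 20 and 26.0 and 27.6 CPM in CPF animals 7 and 8, and the animals that lived had 31.1 to 109 CPM (median 45.2). HADHA, the alpha subunit of the trifunctional protein, had 174, 292, 200.1, 189 and 179 CPM in animals 2, 16, 20, 7 and 8, against 215 to 547 CPM (median 283). In both genes 4 of 5 animals that died were below every animal that lived and FS animal 16 was not. They were the 2 lower genes of the list (unadjusted p = 0.00716 and 0.01, adjusted p = 0.366 and 0.411, edgeR). GAPDH, the glycolytic dehydrogenase, was the 1 of 16 glycolysis genes lower and that list's lowest, with 282 to 382 CPM in animals that died and 274 to 663 CPM (median 479) in those that lived.

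In amino acid metabolism 3 of 25 genes were higher at an unadjusted p under 0.05 and 0 lower, against 4.45% and 4.09% of all genes, with 21 of 25 positive. ARG1, the arginase that ends the urea cycle, had 2066, 747 and 524 CPM in FS animals 2, 16 and 20 and 604 and 727 CPM in CPF animals 7 and 8, against 189 to 688 CPM (median 471). FS animal 2 was the highest of all, at over 2 times the next animal. The same animal was highest for AASS, an enzyme of lysine breakdown, and for BCKDHA, a subunit that oxidizes branched-chain amino acids, and FAH, of tyrosine breakdown, was the lowest member at −0.28. Without FS animal 2 the log2 fold changes of ARG1, AASS and BCKDHA went from 0.98, 0.86 and 0.51 to 0.46, 0.34 and 0.34. The ATF4 amino acid response had 3 of 15 higher (PHGDH, FGF21 and CTH), down to STC2, a secreted hormone, at −0.53. CTH, which makes cysteine, had 679, 375, 91.5, 119 and 130.1 CPM in animals 2, 16, 20, 7 and 8, against 70.1 to 275 CPM (median 202). Only FS animals 2 and 16 were above the animals that lived for CTH, and without FS animal 2 its log2 fold change went from 0.65 to 0.14. Gluconeogenesis had 1 of 21 higher, the glycogen-targeting subunit PPP1R3G (1.11, and 0.07 without FS animal 2), and ran from the transcription factor CREB3L3 at −0.82 to the transaminase GPT2 at 1.12 ± 0.56 (SE), which was 0.68 without FS animal 16. In the insulin and growth hormone axis 2 of 12 were higher, FGF21 and the transcription factor FOXO3 at 1.30 ± 0.47 (SE), and IGFALS, the carrier subunit for IGF1, was lowest at −0.22.

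Ribosome biogenesis genes had the second largest share at an unadjusted p under 0.05, 8 of 23 higher and 0 lower, against 4.45% of all genes, with a small median of 0.18. The 8 were DDX21, RRP12, MYBBP1A, DKC1, NCL, NOLC1, GNL3 and HEATR1. DDX21, a nucleolar RNA helicase and the highest of the list, had 297, 142 and 199 CPM in FS animals 2, 16 and 20 and 215 and 249 CPM in CPF animals 7 and 8, against 79.5 to 223 CPM (median 129.7). The 3 CPF animals that lived had 171 to 223 CPM, so they lay in the upper part of that range. NCL, the abundant nucleolar protein nucleolin, had 374, 203, 307, 329.8 and 341 CPM in animals 2, 16, 20, 7 and 8, against 141 to 362 CPM (median 216). FS animal 2 exceeded the highest animal that lived in 14 of 23 genes, and without this animal 0 of 23 genes were left at an unadjusted p under 0.05 and the median was 0.02. Over all genes 283 of 11617 had higher values at such a p without FS animal 2. CPF animals that lived exceeded the median of those that lived in 19, 23 and 21 genes, and CPF animals that died in 22 and 22. Such counts per animal were not made over all genes. BYSL was the lowest member at −0.09. The cytosolic ribosome itself had 0 of 13 genes, from RPS9 at −0.19 to RPL14 at 0.05.

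Among genes with a symbol and a log2 fold change of −1 or below, the 12 with the smallest p were METTL18, MEOX2, CASP9, PGBD1, BLM, SLAMF8, EPHB6, TPD52L1, CPT1C, UBE2QL1, MYBPC1 and STIL, none called. All lay at low levels, with medians of the animals that lived from 0.668 to 4.63 CPM. METTL18, a histidine methyltransferase of the ribosome, had 1.15, 2.28 and 3.13 CPM in FS animals 2, 16 and 20 and 4.13 and 1.66 CPM in CPF animals 7 and 8, against 3.01 to 7.21 CPM (median 4.45), with a log2 fold change of −1.04 ± 0.27 (SE; edgeR quasi-likelihood p = 8.35e-04, adjusted p = 0.321). CASP9, the initiator caspase of the mitochondrial death pathway, had 0.891, 2.61 and 1.61 CPM in FS animals 2, 16 and 20 and 3.36 and 2.57 CPM in CPF animals 7 and 8, against 2.23 to 5.82 CPM (median 4.63). In both genes FS animal 2 was the lowest of all 20 animals and CPF animal 7 the highest of those that died. MEOX2, a homeobox factor of mesenchyme and vessels, had 0, 0.163 and 0 CPM in FS animals 2, 16 and 20 and 0.229 and 0.166 CPM in CPF animals 7 and 8, which is 0 to 3 counts a library, and 0.230 to 1.61 CPM (median 0.668) in those that lived, so its fitted log2 fold change of −2.47 depends on the prior count. The remaining 9 had at most 2.32 CPM in any animal that died, and the highest value of UBE2QL1 and TPD52L1 was that of CPF animal 3, which lived and had 11.99 and 5.62 CPM.

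For 5 genes (0.0428% of those tested) all animals that died were below all that lived. Besides MEOX2 these were LTBR, TMUB1, CILK1 and ENSSSCG00000021779, picked for this separation. LTBR, the lymphotoxin beta receptor, had 50.8, 53.7 and 49.5 CPM in FS animals 2, 16 and 20 and 48.5 and 50.0 CPM in CPF animals 7 and 8, against 53.8 to 108 CPM (median 61.6). FS animal 16 lay just under the lowest animal that lived. TMUB1, a ubiquitin-like membrane protein, had 19.1, 18.001, 14.03, 18.6 and 18.7 CPM in animals 2, 16, 20, 7 and 8, and the animals that lived had 19.4 to 33.4 CPM (median 23.4). CILK1, a kinase of cilia, had 8.28, 9.77, 9.56, 7.57 and 10.18 CPM in animals 2, 16, 20, 7 and 8, against 10.5 to 25.3 CPM (median 14.2). Their log2 fold changes were −0.43 ± 0.16 (SE), −0.48 ± 0.15 (SE) and −0.67 ± 0.18 (SE), all under 1 in size.

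Among secreted liver proteins few genes reached an unadjusted p under 0.05, which 4.45% of all genes reached with higher values and 4.09% with lower values. ALB had 131076, 126662 and 123204 CPM in FS animals 2, 16 and 20 and 82724 and 116057 CPM in CPF animals 7 and 8, against 46258 to 152896 CPM (median 121016). ALB chose the libraries, so its values are a description, with no test. The negative acute phase list of 9 genes includes ALB, which is left aside here. Of the others 0 reached an unadjusted p under 0.05, from SERPINA6, which carries cortisol, at −0.23 to AHSG, fetuin, at 0.13. Positive acute phase proteins had 0 higher and 1 of 12 lower. FGB, a fibrinogen chain, had 4428, 3764, 3553, 2349 and 3272 CPM in animals 2, 16, 20, 7 and 8, against 2919 to 10074 CPM (median 5281). FS animal 10, which lived, was the highest for FGB, the lowest for ALB, and at 888 CPM the highest for LBP, which binds endotoxin, against at most 162 CPM in the animals that died. The coagulation list had 1 of 19 higher, PLAT, the tissue plasminogen activator, at 1.13 ± 0.44 (SE), p = 0.0174, and 1 lower, FGB. PLAT had 6.37, 10.996, 19.6, 15.4 and 33.9 CPM in animals 2, 16, 20, 7 and 8, against 2.25 to 21.1 CPM (median 6.02). Complement had 1 of 22 lower, the protease MASP2 at −0.74 ± 0.31 (SE), p = 0.0256, and FCN2, a ficolin, was highest at 0.38.

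The remaining lists held few genes at an unadjusted p under 0.05, where 4.45% of all genes were higher and 4.09% lower. The p53 and apoptosis list had 2 of 15 higher, GADD45B and the survival protein MCL1, with CASP8 lowest at −0.21, and the extracellular matrix list had 1 of 22, the matricellular protein THBS1. THBS1 had 74.9, 77.4, 126, 94.5 and 257 CPM in animals 2, 16, 20, 7 and 8, against 23.8 to 132 CPM (median 51.9), with CPF animal 8 highest (log2 fold change 1.22, and 0.80 without it), and COL1A2, a collagen, was lowest at −0.33. The detoxification list had 1 of 13 lower, NR1I2, the pregnane X receptor, at −0.39 ± 0.16 (SE), p = 0.0219, with CYP1A1 lowest at −2.44 and SRXN1 highest at 0.82. CYP1A1 was −0.17 without FS animal 14, which lived, −3.68 without FS animal 20 and −0.11 with DESeq2, and SRXN1 was 0.12 with all 23 libraries. The unfolded protein response (0 of 19, CRELD2 −1.68 to ATF6 0.48), heat shock (0 of 17, HSPA4L −0.93 to BAG3 0.41), bile acid (0 of 14, CYP7A1 −0.45 to BAAT 0.63) and cell cycle (0 of 15, UBE2C −0.76 to CCNB2 0.50) lists had none. Neither did iron and heme (0 of 15, SLC39A14 −0.43 to FECH 0.44), nonmuscle cytoskeleton (0 of 21, TMSB10 −0.48 to KRT8 0.39), respiratory chain (0 of 19, NDUFA4 −0.27 to UQCRC2 0.21) or proteasome (0 of 16, PSMA5 −0.19 to PSMD1 0.42) genes. All these values are log2 fold changes. CRELD2 was −0.90 without FS animal 10 and −0.10 without FS animals 4 and 10, whose unfolded protein response genes summed to 15967 and 27301 CPM where the other 18 animals had 3599 to 5996 CPM.

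**Figure D4:**
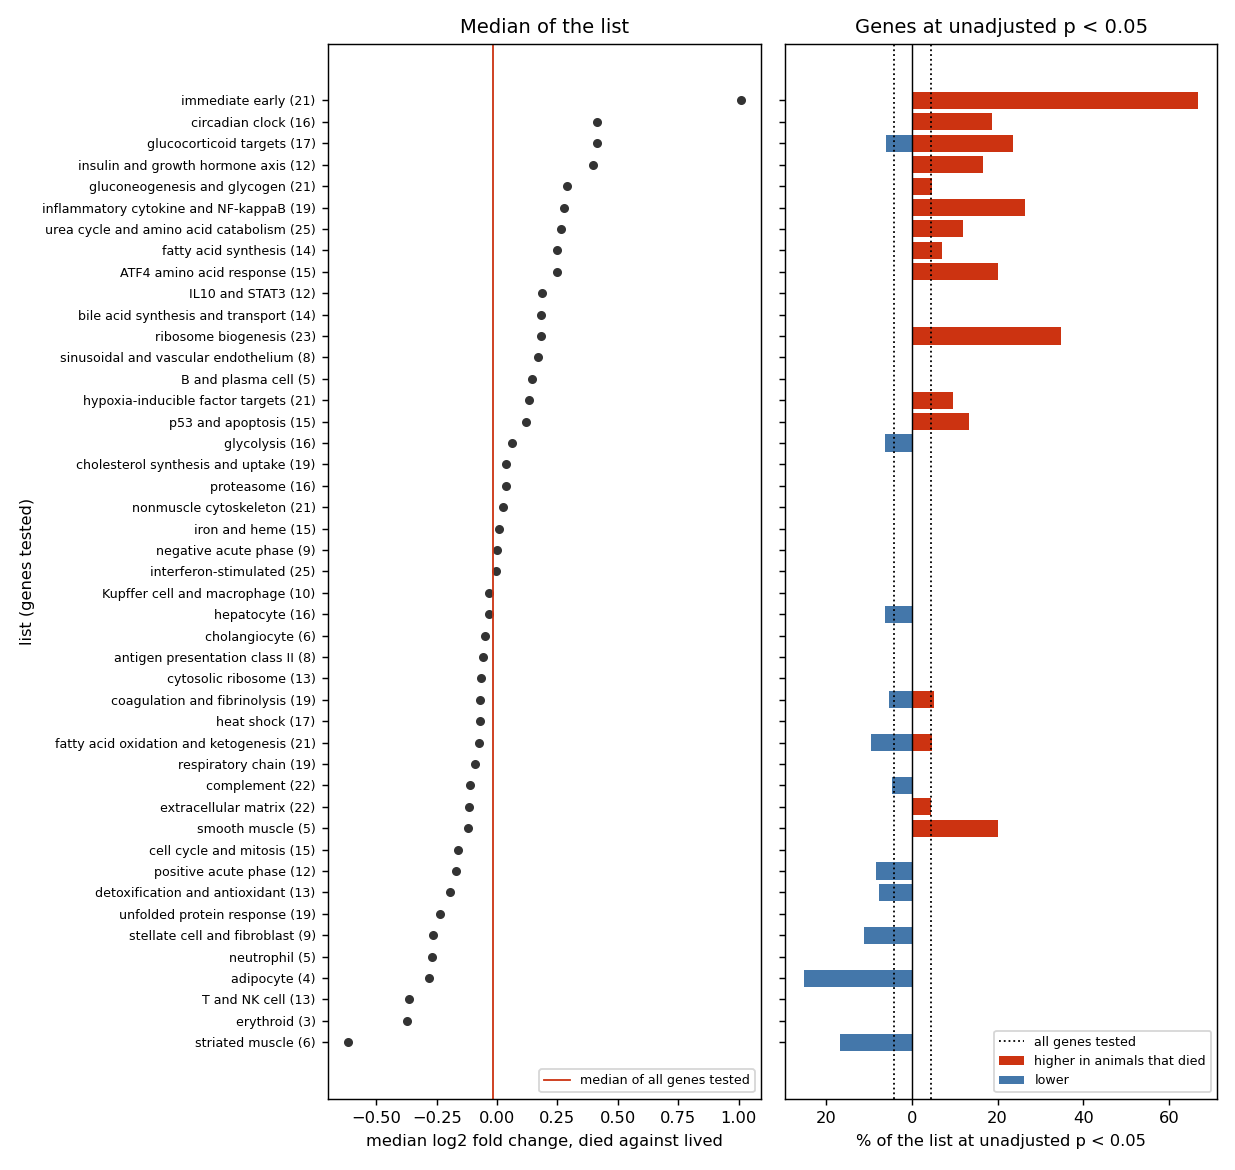
Left, the median log2 fold change of each of the 45 lists, with the number of genes tested in brackets and the median of all genes tested as a line. Right, the share of each list at an unadjusted p under 0.05, to the right for higher and to the left for lower values in animals that died, with dotted lines at 4.45% and 4.09% for all genes tested. The immediate early list has the highest median, 1.01, and no gene of any list passed the adjusted threshold.

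Markers of cell types gave the makeup of the biopsies, in which fewer cells of a type and less RNA per cell cannot be told apart. The sums cover every listed marker with an identifier, tested or not. These were 11 for Kupffer cells and macrophages, 10 for neutrophils, 7 for B and plasma cells and 5 for erythroid cells. Of all genes 4.45% were higher and 4.09% lower at an unadjusted p under 0.05. Of 18 hepatocyte markers listed, 16 had an identifier and all of these were in the fit. They include ALB, which chose the libraries, so their sum is a description with no test. The 16 summed to 182547 to 240883 CPM in the animals that died and 136527 to 271314 CPM in those that lived, with 1 gene lower (FGB). Kupffer cell and macrophage markers (10 tested, 0 at an unadjusted p under 0.05) summed to 1312 to 1485 CPM in the animals that died and 974 to 2056 CPM in those that lived. Endothelial markers (8 tested, 0) summed to 311 to 446 CPM in the animals that died and 216 to 457 CPM in those that lived. The range of the animals that died lay within that of the animals that lived for each of these 3 lists. For hepatocytes the sum holds ALB, which chose the libraries. T and NK cell markers (13 tested, 0) had a median of −0.37 and summed to 64.9 to 111 CPM in the animals that died and 60.4 to 223 CPM in those that lived. Neutrophil markers (5 tested, 0) summed to 7.33 to 9.78 CPM in the animals that died and 5.46 to 22.9 CPM in those that lived, B and plasma cell markers (5 tested, 0) to 7.64 to 15.7 CPM in the animals that died and 6.40 to 30.1 CPM in those that lived, and cholangiocyte markers (6 tested, 0) to 95.3 to 236 CPM in the animals that died and 91.1 to 318 CPM in those that lived. The 9 stellate cell and fibroblast markers tested summed to 483 to 1141 CPM in the animals that died and 454 to 1725 CPM in those that lived, with the proteoglycan LUM lower at −1.62 ± 0.67 (SE), p = 0.0238. Erythroid markers (3 tested, 0) summed to 89.3 to 544 CPM in the animals that died and 70.4 to 986 CPM in those that lived.

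Striated muscle markers were at trace levels. Of the 21 listed 12 had an identifier and 6 were tested. The 12 summed to 17.3 to 21.98 CPM in the animals that died and 11.5 to 92.8 CPM in those that lived. ACTA1 had 0 to 3 counts in the animals that died and up to 302 counts in an animal that lived, FS animal 6, so no fold change is given for it, and it was the 1 of the 6 with an unadjusted p under 0.05. Smooth muscle markers (6 summed, 5 tested) had 150.3 to 229 CPM in the animals that died and 127 to 314 CPM in those that lived. SYNPO2 was higher at 0.77 ± 0.37 (SE; edgeR quasi-likelihood p = 0.0475) and turned to −1.96 with all 23 libraries. Adipocyte markers (4 tested) summed to 4.33 to 10.7 CPM in the animals that died and 5.18 to 20.7 CPM in those that lived, with CIDEC lower at −0.64 ± 0.28 (SE), p = 0.0359. Their part in the values above was not tested.

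The 12 higher genes with the smallest p were then read in the later libraries of the same animals, which did not choose them. At FR2 all 12 had a positive log2 fold change, with a median of 0.67 against 1.41 at Baseline, and 2 reached an unadjusted p under 0.05 in that direction, against 2.78% of all genes (2.36% lower). At FR8 all 12 were positive with a median of 0.39, and 1 had such a p, against 1.15% (0.711% lower). At FR20 5 of 12 were positive, the median was −0.07 and 0 had such a p, against 4.67% (2.92% lower). These genes, like the 12 lower ones, were chosen for a large Baseline difference, so a smaller one later can come from that choice alone. Of the 12 lower genes 10 of 10 tested were negative at FR2, 8 of 12 at FR8 and 9 of 12 at FR20, with medians of −0.85, −0.44 and −0.64 against −1.56 at Baseline. An unadjusted p under 0.05 in that direction was reached by 4, 3 and 3 of them, against the 2.36%, 0.711% and 2.92% of all genes. No gene of the whole table was called at FR2, FR8 or FR20 by edgeR's quasi-likelihood test, where 594, 220 and 925 genes had an unadjusted p under 0.05. RND1 itself had 86.4, 134 and 112 CPM in FS animals 2, 16 and 20 and 553 and 258 CPM in CPF animals 7 and 8 at FR2, where the animals that lived had 10.24 to 633 CPM (median 96.1). Both outcomes overlapped there, with log2 fold changes of 0.57 at FR2, 0.07 at FR8 and 0.40 at FR20.

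KLF10 kept its Baseline pattern at FR2. It had 64.3, 62.9 and 195 CPM in FS animals 2, 16 and 20 and 227 and 211 CPM in CPF animals 7 and 8, and the animals that lived had 18.6 to 86.1 CPM (median 47.6). Animals 20, 7 and 8 were again above all that lived, and the log2 fold change was 1.39 ± 0.32 (SE). MYC at FR2 had 104, 113 and 329 CPM in FS animals 2, 16 and 20 and 323 and 285 CPM in CPF animals 7 and 8, against 52.9 to 151 CPM (median 95.1), with a log2 fold change of 1.09 ± 0.26 (SE). Of all genes 2.78%, 1.15% and 4.67% had higher values at an unadjusted p under 0.05 at FR2, FR8 and FR20. The shares with lower values were 2.36%, 0.711% and 2.92%. Of the immediate early list 10 of 21 genes had such higher values at FR2, 2 at FR8 and 1 at FR20, with medians of 1.09, 0.27 and 0.36. The ribosome biogenesis list had 0 of 23, 0 of 23 and 1 of 23 higher. The unfolded protein response, without a gene at Baseline, had 1, 0 and 12 of 19 higher and 3, 0 and 0 lower at FR2, FR8 and FR20.

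At FR8 19 libraries were used, 14 of them from animals that lived, because that of CPF animal 3, which lived, held 4388 counts in all and was left out. The other 19 held at least 8855156 counts each. Whether the difference between outcomes changed from Baseline was tested with terms for each animal. By edgeR's quasi-likelihood test 0 of 13531 genes passed at FR2, FR8 or FR20, with smallest adjusted p of 0.759, 0.103 and 0.222 and 315, 657 and 1168 genes at an unadjusted p under 0.05. The 3 tests share the Baseline libraries. Their counts cover all genes tested and do not leave out the 24 genes named for their Baseline difference. Baseline chose these 24, so how many of them changed is not given.

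**Figure D5:**
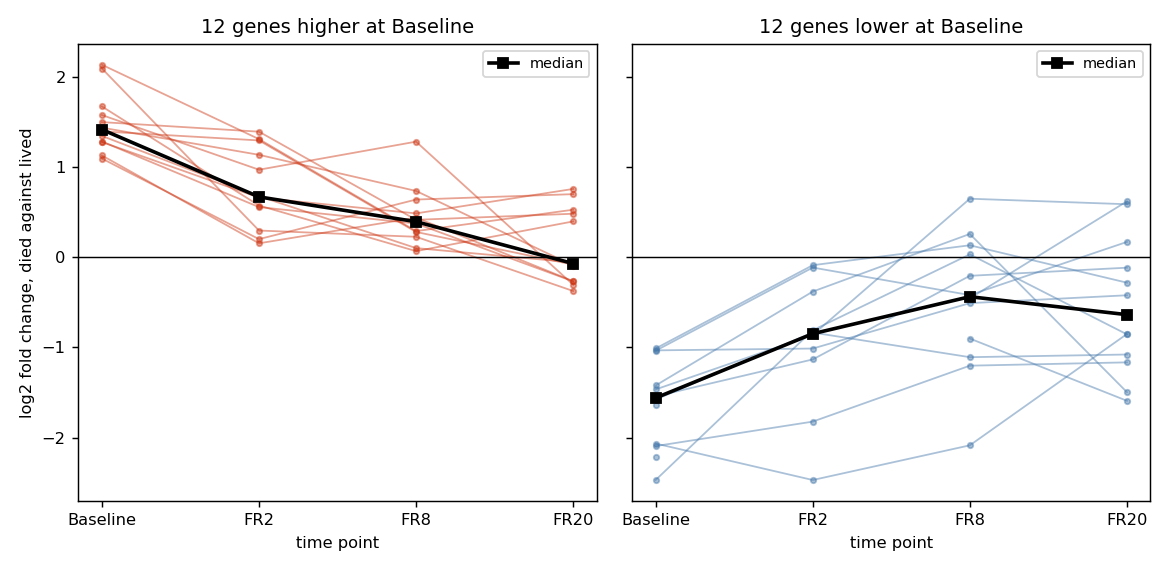
Log2 fold change of animals that died against those that lived at Baseline and at FR2, FR8 and FR20, for the 12 higher (left) and 12 lower (right) genes chosen at Baseline. Each thin line is 1 gene, black squares are medians, and a gap marks a gene not tested at that time. The median of the higher genes is 1.41 at Baseline, where they were chosen for a large difference, and −0.07 at FR20.

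Whether the difference depended on feeding was tested at Baseline with an interaction term. By edgeR's quasi-likelihood test 0 of 11688 genes passed, the smallest adjusted p was 0.999, and 357 genes had an unadjusted p under 0.05. The CPF part of this test rests on 2 animals that died and 3 that lived.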

How the data were processed

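Liver biopsies were sequenced by the authors as single reads on an Illumina HiSeq after poly-A TruSeq preparation. Per the labels, the processing tools were CASAVA 1.8.2, TopHat 1.5.0, SAMtools, HTSeq and edgeR 3.2.4, with the pig build Sscrofa10.2. The deposited values are raw read counts per gene, and no batch is given in the sources used here. Library totals and their range stand in the text, and they limit the precision of low genes.

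Counts were scaled by TMM and fitted in R 4.3.3 with edgeR 4.0.16 (quasi-likelihood F test, terms for fed status and outcome) over genes whose CPM summed to at least 10 over the libraries. A call needed an adjusted p (Benjamini-Hochberg, over all genes tested) under 0.05 and a log2 fold change of at least 1 in size. The SE of a log2 fold change was derived as its size divided by the square root of the F statistic. Animals are separate pigs, and the change from Baseline was fitted with a term for each animal, so libraries of 1 animal are paired. Library measures were compared by an exact 2-sided permutation test, with all splits enumerated in Python 3.11.15. limma 3.58.1, DESeq2 1.42.0, other filters and scalings, and each animal left out in turn were alternatives. The scripts were tested on simulated data. Of 25322 identifiers 12483 had a symbol, and 679 of these came from the study's tables alone.

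The animals, members and gene lists were chosen with earlier results of these data known. Named genes were the 12 higher and 12 lower genes with a symbol, a log2 fold change of at least 1 in size and the smallest p, and the highest and lowest gene of each list. List members at an unadjusted p under 0.05, genes whose groups did not overlap and genes without a symbol were named after their values were seen. For cell type lists, the extremes and the most abundant members with a larger p are covered by the summed values, except ALB and ACTA1. Some genes that this rule names are not reported here.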

Additional observations from a re-analysis of the deposited data

Results flagged for a closer look

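Of 52 sets of 5 values from the animals that died, 3 held a value far from the other 4 by Dixon's test (ratio above 0.71), and chance flags about 1 in 20 sets. CPM were checked as log2(CPM + 2), and shares as they stand. TPD52L1 reached 0.536 CPM in FS animal 20, the highest of the 5, with a ratio of 0.724, but none of the 5 had over 6 counts of it. The summed adipocyte markers were lowest in FS animal 2, at 4.33 CPM (ratio 0.775). The share of the 10 most abundant genes was lowest in CPF animal 7, at 25.2% (ratio 0.829).

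ACTA1 stood out in the 3 Baseline libraries left out, at 18973 CPM in animal 17, 27283 CPM in animal 19 and 25109 CPM in animal 21, above every library used. The labels call these samples liver.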

How the results depend on the processing

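At Baseline 0 genes were called. The count became 2 when every gene with at least 1 count in any library was kept, 10 with DESeq2 and 19 with the likelihood ratio test. It was 1 without the fed term (RND1) and 1 with all 23 libraries (ENSSSCG00000024699, not RND1). It ranged from 0 to 3 when 1 animal was left out (3 without CPF animal 7). Leaving out 1 animal gave 0 to 1 calls at FR20 and 0 to 1 for the change to FR8. Without the replicate block, meaning no term for each animal, the change from Baseline also gave 0 calls at each time.

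At an unadjusted p under 0.05, higher genes numbered 835 with limma, 311 with all 23 libraries, 314 among FS animals alone and 283 to 633 with 1 animal left out, 283 being without FS animal 2. Lower genes numbered 303 with all 23 libraries and 327 to 549 with 1 animal left out. The immediate early count was 7 with all 23 libraries and 7 among FS animals alone. The ribosome biogenesis count was 3 with limma, 1 with all 23 libraries and 0 to 9 with 1 animal left out (0 without FS animal 2, 5 without FS animal 9).

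Of 129 named genes 113 kept their direction in every alternative run that tested them and 16 turned in at least 1. Some genes were not tested in every run. ACACB was tested in 8 of 11 other settings and in 7 of 20 runs with 1 animal left out. For TSC22D1 these numbers were 9 and 11, and for MEOX2 9 and 19. With all 23 libraries the log2 fold change became 0.0075 for SERPINA6, −0.053 for UQCRC2, 0.030 for IGFALS, −1.96 for SYNPO2 and −0.44 for BIRC3. Among FS animals alone it became −0.23 for KRT8. With limma it became 0.82 for HSPA4L, 0.23 for OSMR and 0.0027 for BYSL. OSMR gave 0.014 without the fed term and 0.18 without animals 4 and 10, an alternative chosen after seeing the data. With 1 animal left out, the ranges that crossed 0 were −0.24 to 0.097 for OSMR, −0.17 to 0.083 for BYSL, −0.76 to 2.53 for FGF21, −0.032 to 0.85 for CCNB2, −0.21 to 0.15 for CCN1, −0.038 to 1.78 for SCD, −0.052 to 0.59 for BAG3, −0.015 to 0.094 for RPL14 and −0.064 to 1.96 for NR4A2. In size, 68 of the 129 moved by over 1.5 times when some 1 animal was left out, 37 of them without FS animal 2, 20 without FS animal 20, 14 without CPF animal 8, 13 without FS animal 16 and 8 without CPF animal 7. The cause was not tested.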
